A study of Mus musculus with 32 samples.

Results

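Acot1, Acot2, Acot3, Acot4 and Acot5 encode type I acyl-CoA thioesterases, enzymes that split acyl-CoA into a free fatty acid and coenzyme A. Their mRNA was followed in mouse liver across a chow diet (C), a methionine and choline-deficient (MCD) diet, treatment with Fc-GLP-1 and partial hepatectomy (PH). The members were found as every non-control probe whose gene name in the scanner files is one of these 5 genes, which gave 7 of 55681 probes: 1 each for Acot1, Acot2 and Acot4 and 2 each for Acot3 and Acot5. All 5 genes were among the 21073 genes tested. The genes were chosen by a result of these same arrays, namely that Acot5 signal before PH was higher on MCD diet with Fc-GLP-1 (M+Fc-GLP-1) than without it (MCD). That contrast is therefore given as values with no test, and Acot5 was tested only in comparisons that use neither of its 2 groups.

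By sequence and chemistry the 5 enzymes are close relatives, and they differ mainly in where they work. Acot1 acts in the cytosol, Acot2 in mitochondria, and Acot3, Acot4 and Acot5 in peroxisomes, where fatty acids are shortened by beta-oxidation. Acot3 acts on long-chain acyl-CoA, Acot4 on succinyl-CoA and other dicarboxylic acyl-CoA, and Acot5 on medium-chain acyl-CoA. In liver the genes are known as targets of PPAR alpha, the nuclear receptor that senses fatty acids and turns on their oxidation, and they rise in fasting and with fibrate drugs.

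The arrays hold liver RNA of male C57/BL6 mice, 8 weeks old when the diets began, in 8 groups of 4. Mice had eaten chow or MCD diet for 3 weeks, and both Fc-GLP-1 groups (C+Fc-GLP-1 on chow, M+Fc-GLP-1 on MCD diet) had received the drug, a GLP-1 analogue fused to the Fc part of an antibody, for the last 2 of them, while the C and MCD groups received saline. The same 4 groups were sampled at surgery, when 70% of the liver was removed (before PH), and 2 weeks later (after PH). The paper reports that diet and drug were continued in between. It also describes deaths following the surgery, which were fewer under the drug with either diet. Arrays after PH are therefore from survivors, and comparisons using them may also differ in which mice lived. The part of survival in the Acot levels was not tested. The labels conflict on the drug, since part of them names Fc-GLP-1 and part a molecule acting on both the glucagon receptor and that of GLP-1. For treated chow-fed arrays taken after PH, the source label names such a dual agonist as the drug given since surgery. That of treated MCD-fed arrays states an unchanged treatment. By these labels, comparisons using treated chow-fed arrays taken after PH may also differ in drug. The study's legends describe both times as the same group of mice and sample names repeat, but no label ties an array after PH to a single mouse before it.

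Levels are log2 signals minus the 75th percentile of the array, so a level of 0 is that percentile. The share of probes well above background ran from 36.2% to 69.1% over the arrays. The C and MCD groups before PH shared 1 slide, both drug-treated groups before PH another, and both drug-treated groups after PH a further one. In every other comparison slide and group cannot be told apart, and the C and MCD groups after PH were also read on another scanner. The hepatocyte markers fixed for this work (8 of 8) were well above background on all 4 arrays of every group.

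The 5 genes lie in a row on the plus strand of chromosome 12, in the order Acot2, Acot1, Acot4, Acot3, Acot5, within 88.2 kb of the GRCm38 build (RefSeq). Acot2 (gene ID 171210) spans 83987861 to 83993877, Acot1 (26897) 84009502 to 84017670, Acot4 (171282) 84037254 to 84044723, Acot3 (171281) 84052144 to 84060400 and Acot5 (217698) 84069077 to 84076024. Besides the members, RefSeq places 1 gene in this stretch, the long non-coding RNA Gm40474, and the next relative, Acot6, starts 112.8 kb from the start of Acot2.

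For Acot3 and Acot5, which have a pair of probes each, the probe letters are shown because the readings of the Acot5 pair differed. The brighter probe is called probe 1 and stands for the gene unless stated otherwise. Positions are on mm9, the build that the scanner files use, and capitals mark AATAAA, a signal for the cutting and polyadenylation of transcripts. 2 of the probes are shown whole and 2 by 30 of their 60 bases.
Acot3 probe 1, bases 18 to 47, mm9 chr12:85400452-85400511: tacacacaagcacacatgAATAAAaataca
Acot3 probe 2, mm9 chr12:85399468-85399527: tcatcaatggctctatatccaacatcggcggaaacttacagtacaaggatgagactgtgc
Acot5 probe 1, mm9 chr12:85416634-85416693: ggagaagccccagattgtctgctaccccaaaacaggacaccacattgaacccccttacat
Acot5 probe 2, bases 31 to 60, mm9 chr12:85416893-85416951: atatatgcattgttttcttcttttAATAAA

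The probes of Acot3 start 984 bases apart and those of Acot5 259 bases apart. AATAAA was in 3 of the 7 member probes (Acot1, Acot3 probe 1 and Acot5 probe 2) and in 10.1% of all 55681 probes. No probe of a member shared a run of more than 9 bases with a probe of another member. The transcripts themselves were not compared here, so signal from a near relative was not tested.

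**Figure D1:**
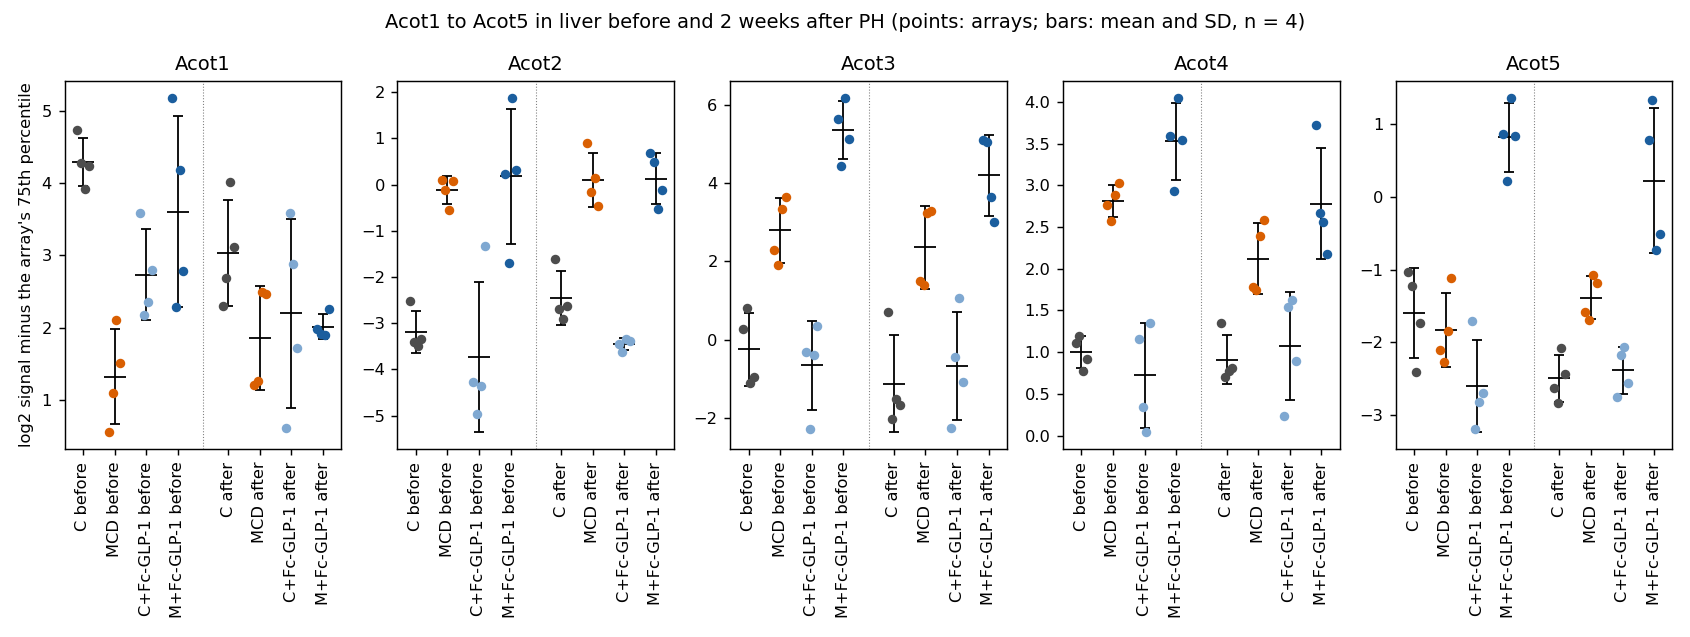
Log2 signal minus the array's 75th percentile (vertical axis) for the probe that stands for each gene in 8 groups, before PH left and after PH right of the dotted line. Points are arrays and bars the mean and SD of 4. For Acot3 and Acot4 the 16 MCD-fed arrays lie above all 16 chow-fed arrays, and for Acot5 the 8 M+Fc-GLP-1 arrays lie above the other 24. The shares of all genes with such separations were not counted.

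Acot1, the cytosolic enzyme, had its highest level in C mice before PH and its lowest in MCD mice before PH. The 4 arrays of the C group read 4.73, 4.28, 3.92 and 4.23 and those of the MCD group 0.55, 1.10, 2.11 and 1.51. With Fc-GLP-1 before PH the levels were 3.59, 2.18, 2.35 and 2.79 on chow and 5.18, 2.28, 4.18 and 2.78 on MCD diet. The C and MCD arrays did not overlap, whereas the treated groups did. After PH the C group read 2.30, 2.69, 4.01 and 3.12, the C+Fc-GLP-1 group 0.61, 3.58, 2.88 and 1.71, the MCD group 1.21, 1.26, 2.49 and 2.46 and the M+Fc-GLP-1 group 1.98, 1.91, 1.89 and 2.26. Every pair of neighbours in the order of the 8 group means overlapped.

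Acot2, the mitochondrial enzyme, was dim in chow-fed mice and brighter in MCD-fed mice, treated or not. Before PH the C arrays read -2.51, -3.40, -3.50 and -3.35 and the MCD arrays 0.10, -0.12, -0.54 and 0.08. The C+Fc-GLP-1 arrays read -4.28, -4.96, -4.35 and -1.33 and the M+Fc-GLP-1 arrays 0.23, -1.70, 1.88 and 0.31. The probe was well above background on 3 of 4 C arrays and 1 of 4 C+Fc-GLP-1 arrays before PH and on all arrays of the other 6 groups. After PH the group means were -2.46 ± 0.59 in C, -3.45 ± 0.13 in C+Fc-GLP-1, 0.10 ± 0.59 in MCD and 0.13 ± 0.55 in M+Fc-GLP-1 mice (SD, n = 4). The diets overlapped by 1 M+Fc-GLP-1 array before PH, which at -1.70 lay below 2 chow-fed arrays (-1.33 in C+Fc-GLP-1 before PH, -1.60 in C after PH), and the order among the 4 MCD-fed groups was within their spread.

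Acot3, a peroxisomal long-chain thioesterase, separated the diets on every array and was highest in M+Fc-GLP-1 mice. Before PH the C arrays read 0.28, 0.81, -1.10 and -0.96, the C+Fc-GLP-1 arrays -0.30, -2.27, -0.40 and 0.35, the MCD arrays 2.29, 1.91, 3.33 and 3.64 and the M+Fc-GLP-1 arrays 5.64, 4.44, 6.18 and 5.13. After PH the C arrays read 0.72, -2.02, -1.50 and -1.67, the C+Fc-GLP-1 arrays -2.24, -0.43, 1.08 and -1.09, the MCD arrays 1.51, 1.39, 3.24 and 3.29 and the M+Fc-GLP-1 arrays 5.10, 5.04, 3.65 and 3.02. The lowest of 16 MCD-fed arrays (1.39) was above the highest of 16 chow-fed arrays (1.08). The share of all genes that separate the diets in this way was not counted, here or for Acot4 below. M+Fc-GLP-1 arrays did not overlap MCD arrays before PH and overlapped them after PH.

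Acot4, the peroxisomal thioesterase of dicarboxylic acyl-CoA, showed the same separation over a narrower range. Before PH the C group had 1.00 ± 0.20, the C+Fc-GLP-1 group 0.72 ± 0.63, the MCD group 2.81 ± 0.20 and the M+Fc-GLP-1 group 3.53 ± 0.46 (mean ± SD, n = 4). After PH the corresponding means were 0.91 ± 0.30, 1.07 ± 0.65, 2.12 ± 0.43 and 2.78 ± 0.66. The lowest MCD-fed array read 1.74 and the highest chow-fed array 1.62, so no array of one diet crossed into the other.

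Acot5, the peroxisomal medium-chain thioesterase, was by probe 1 highest in M+Fc-GLP-1 mice, both before and after PH. Before PH the C arrays read -1.04, -1.22, -2.41 and -1.73, the C+Fc-GLP-1 arrays -1.71, -3.19, -2.82 and -2.70, the MCD arrays -2.10, -2.27, -1.85 and -1.11 and the M+Fc-GLP-1 arrays 0.86, 0.21, 1.36 and 0.83. After PH the C arrays read -2.63, -2.84, -2.08 and -2.43, the C+Fc-GLP-1 arrays -2.75, -2.18, -2.06 and -2.56, the MCD arrays -1.58, -1.69, -1.08 and -1.19 and the M+Fc-GLP-1 arrays 0.78, 1.33, -0.73 and -0.51. All 8 M+Fc-GLP-1 arrays (lowest -0.73) were above the other 24 (highest -1.04). The 4 M+Fc-GLP-1 arrays before PH are among those that chose the gene, and the share of all genes with such a separation was not counted. Probe 1 of Acot5 was well above background on 31 of 32 arrays. By probe 2 the M+Fc-GLP-1 group had rank 7 of the 8 group means before PH (-3.29 ± 0.73) and the highest mean after PH (-1.74 ± 0.72, SD, n = 4).

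The MCD diet alone moved the cluster in both directions before PH. Acot2 rose 8.39-fold (log2 3.07 ± 0.58 standard error), Acot3 8.20-fold (3.04 ± 0.70) and Acot4 3.51-fold (1.81 ± 0.33) in MCD against C mice, whereas Acot1, whose gene lies between Acot2 and Acot4, fell 7.86-fold (-2.97 ± 0.55). In limma's fit to all 32 arrays with Benjamini-Hochberg adjustment over 21073 genes, the adjusted p was 0.000299 for Acot2, 0.00203 for Acot3, 0.000214 for Acot4 and 0.000238 for Acot1. Of the 4 members tested, 3 were called higher and 1 lower, in a comparison in which 26.4% of all genes were called, 10.9% higher and 15.5% lower. The share of calls that were higher was 41.4%, and 76.9% with arrays centred on their median. Acot5 read -1.60 ± 0.61 in C and -1.83 ± 0.51 in MCD mice (SD, n = 4), with overlapping arrays and no test. Both groups shared a slide. The Acot2 rise was 4.26-fold with the authors' normalized values and 4.63-fold with normexp and quantile normalization, and was still called, and its probe was well above background on 3 of 4 C arrays.

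Markers of other cell types moved with the diet in the same comparison. Macrophage markers were called higher for 5 of 6, their summed log2 level being 5.83 to 6.69 in C and 6.84 to 8.32 in MCD mice, and neutrophil markers for 2 of 5 (1.12 to 1.43 against 1.98 to 4.44). Hepatocyte markers were called lower for 3 of 8 (12.04 to 12.67 against 11.59 to 11.79) and B and T cell markers for 2 of 3 tested (1.58 to 2.07 against 0.51 to 1.04). Stellate cell markers were called higher for 2 of 6 (1.89 to 2.28 against 2.72 to 3.36), endothelial markers for 1 of 6 (5.60 to 5.99 against 6.02 to 6.40), mesothelial markers for 1 of 2 tested, adipocyte markers for 1 higher and 1 lower of 2 tested, and cholangiocyte markers for 0 of 5. The adipocyte marker called higher was Cidec, a lipid droplet gene, and the adipocyte markers Adipoq, Plin1, Lep and Ucp1 did not enter the tests. The part of the cell types in the changes of the Acot genes was not tested. In whole liver, fewer cells of a type and less RNA per cell cannot be told apart.

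**Figure D2:**
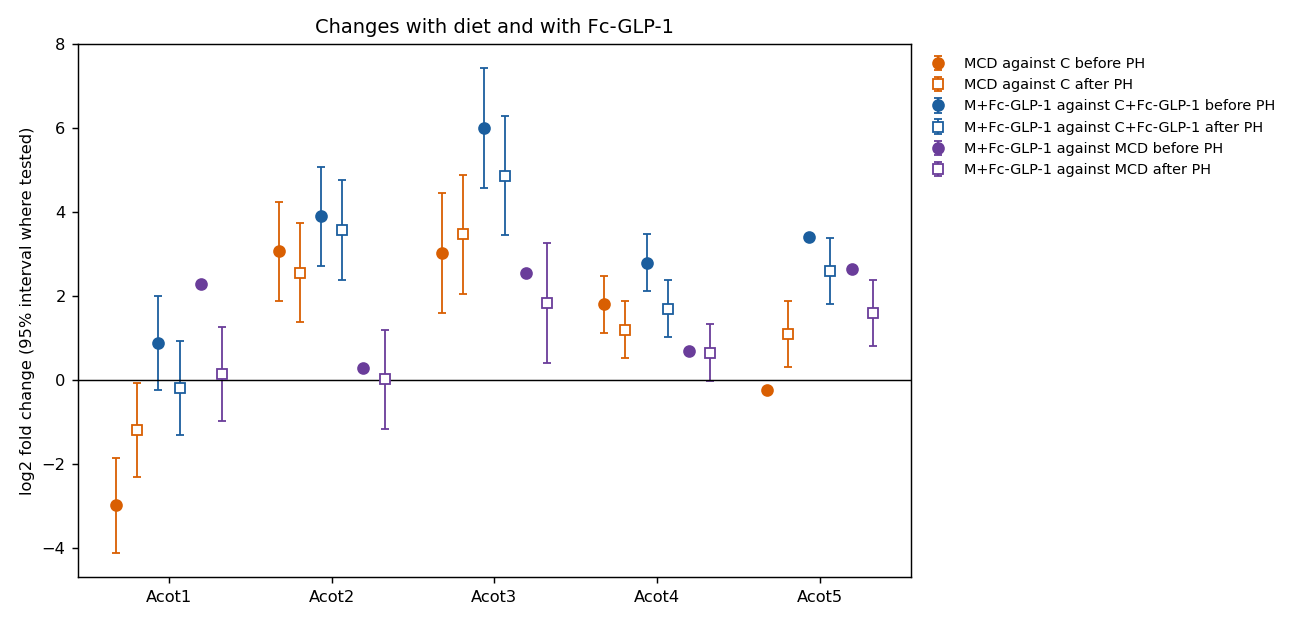
Log2 fold change (vertical axis) of the 5 genes in 6 comparisons, before PH as filled circles and after PH as open squares. Bars are 95% intervals of the limma fit and are drawn only where a gene was tested. Acot1 lies at -2.97 for MCD against C before PH, below 0, while Acot2, Acot3 and Acot4 lie between 1.81 and 3.07.

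In mice given Fc-GLP-1, the diets differed for the same 3 genes before PH. The estimates were larger than without the drug for Acot3 and Acot4, whereas for Acot2 this depended on the normalization. In M+Fc-GLP-1 against C+Fc-GLP-1 mice Acot3 rose 64.0-fold (log2 6.0 ± 0.70 standard error, adjusted p = 8.12e-07), Acot2 15-fold (3.91 ± 0.58, adjusted p = 3.28e-05) and Acot4 6.98-fold (2.80 ± 0.33, adjusted p = 9.92e-07, limma). The Acot2 value is against a group in which 1 of 4 arrays read its probe well above background. It was 3.84-fold with the authors' normalized values, 4.08-fold with normexp and quantile normalization, 26.2-fold without C+Fc-GLP-1 replicate 4 and 23.3-fold without M+Fc-GLP-1 replicate 2, and was called in each. With the first 2 of these settings the Acot2 rise without the drug was larger, at 4.26-fold and 4.63-fold. Acot1 did not pass the test (log2 0.88 ± 0.55, 95% interval -0.24 to 2.00, adjusted p = 0.337). Of the 4 members tested 3 were called, all higher, against 10.4% of all genes called and 5.35% called higher. Acot5 read 0.81 ± 0.47 in M+Fc-GLP-1 mice against -2.60 ± 0.64 in the treated chow-fed mice, with no overlap and no test. The share of calls that were higher was 51.6%, and 24.5% with arrays centred on their median. The groups shared a slide, and of the 6 macrophage markers 1 was called lower (summed level 6.16 to 6.97 in C+Fc-GLP-1, 5.49 to 6.76 in M+Fc-GLP-1 mice). Endothelial markers were called higher for 1 of 6 and adipocyte markers for 1 of 2 tested. Whether the diet effect differs with the drug before PH was not tested, since that difference contains the contrast that chose the genes.

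After PH the MCD diet without the drug again went with higher Acot2, Acot3 and Acot4. The groups lay on different slides, so slide and diet cannot be told apart here. In MCD against C mice Acot3 rose 11.1-fold (log2 3.48 ± 0.70 standard error, adjusted p = 0.00122), Acot2 5.89-fold (2.56 ± 0.58, adjusted p = 0.00375) and Acot4 2.31-fold (1.21 ± 0.33, adjusted p = 0.0154, limma). Acot5 was at 1.11 ± 0.39 on the log2 scale with an adjusted p of 0.0579, although its arrays did not overlap, and its adjusted p was 0.0185 with arrays centred on their median and 0.027 in a fit of these 8 arrays alone. By its other probe Acot5 was at -0.24 (adjusted p = 0.795). Acot1 was at -1.18 ± 0.55 (adjusted p = 0.172). Of 5 members 3 were called, all higher, against 12.1% of all genes called and 6.04% called higher, and the higher share of calls was 49.8%, or 61.9% with arrays centred on their median. The Acot2 rise was 3.66-fold with normexp and quantile normalization and the Acot3 rise 17.0-fold without replicate 1 of the C group, both still called. The Acot4 call was lost without replicate 2 of the C group (adjusted p = 0.0503) and without replicate 4 of the MCD group (0.0528). Neutrophil markers were called higher for 5 of 5 in this comparison (summed level 2.85 to 4.84 in C and 5.67 to 7.40 in MCD mice) and adipocyte markers for 1 of 2 tested, and their part was not tested.

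With Fc-GLP-1 after PH, 4 of the 5 genes differed between diets. M+Fc-GLP-1 against C+Fc-GLP-1 mice had 29.2-fold more Acot3 (log2 4.87 ± 0.70 standard error, adjusted p = 1.65e-05), 12-fold more Acot2 (3.58 ± 0.58, adjusted p = 8.14e-05), 6.08-fold more Acot5 (2.61 ± 0.39, adjusted p = 2.72e-05) and 3.27-fold more Acot4 (1.71 ± 0.33, adjusted p = 0.000682, limma). In each of these the arrays of the groups, which shared a slide, did not overlap. The share of all genes whose arrays lay apart was counted only for M+Fc-GLP-1 against MCD mice before PH, and not for this comparison. By their source labels, these mice may differ in the drug given since surgery as well as in diet. With normexp and quantile normalization Acot2 was 4.17-fold and Acot5 3.18-fold higher, with the authors' values 4.47-fold and 3.34-fold, and Acot5 was 2.83-fold higher by its other probe, all of them called. Acot1 was at -0.19 ± 0.55 (95% interval -1.31 to 0.93, adjusted p = 0.885). The 4 calls, all higher, compare with 12.8% of all genes called and 6.20% called higher. Macrophage markers were called lower for 1 of 6, endothelial markers for 1 of 6 and B and T cell markers for 1 of 3 tested. Hepatocyte markers were called higher for 1 of 8 and adipocyte markers for 1 of 2 tested.

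**Figure D3:**
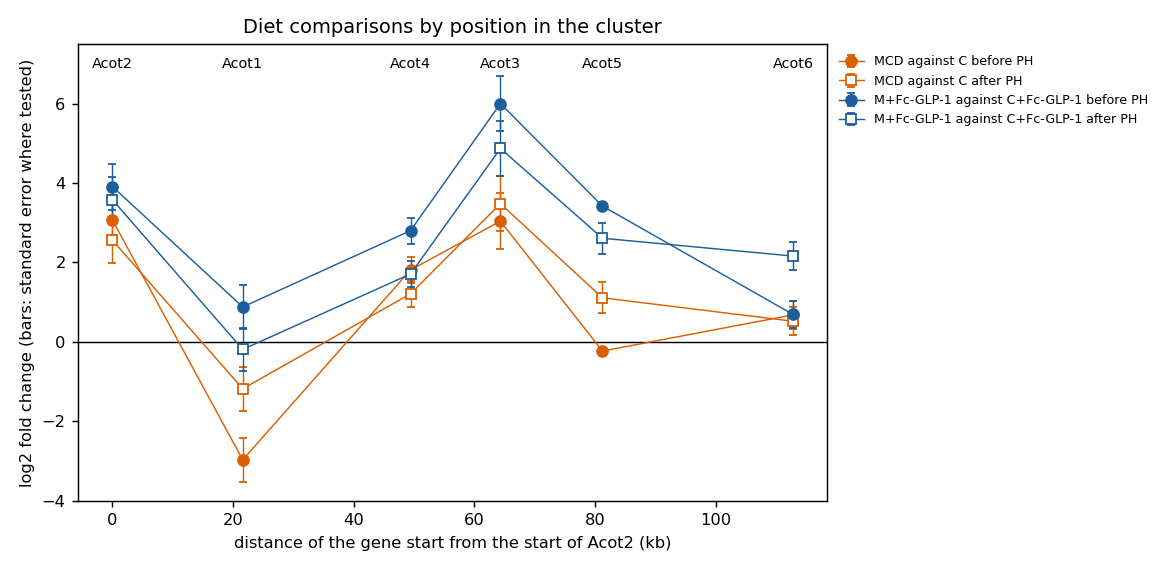
Log2 fold change (vertical axis) of the Acot genes in the diet comparisons against the distance of each gene's start from that of Acot2 in kb. Bars are standard errors, drawn where a gene was tested, and lines join the values of one comparison. Acot1, at 21.6 kb, lies below both neighbours in all 4 comparisons.

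Adding Fc-GLP-1 to the MCD diet before PH is the contrast that chose the genes, so its values are given as a description. Acot5 was 2.65 higher on the log2 scale (6.26-fold) in treated than in untreated MCD-fed mice, Acot3 2.56 (5.88-fold), Acot1 2.29 (4.89-fold), Acot4 0.71 (1.64-fold) and Acot2 0.30 (1.23-fold). The arrays did not overlap for Acot1, Acot3 and Acot5, as for 10.2% of all genes that lay wholly higher. Acot1, which the diet lowered, read 3.61 ± 1.32 in M+Fc-GLP-1 mice, between the MCD (1.32 ± 0.66) and C groups (4.29 ± 0.34), while Acot3, which the diet raised, read higher still. With the authors' normalized values the Acot5 difference was 1.57, with normexp and quantile normalization 1.65, and with its mean over both probes 1.24. By probe 2 alone it was -0.16. The summed level of the 6 macrophage markers was 6.84 to 8.32 in MCD and 5.49 to 6.76 in M+Fc-GLP-1 mice, that of the 5 neutrophil markers 1.98 to 4.44 and 0.57 to 1.55, and that of the 8 hepatocyte markers 11.59 to 11.79 and 11.75 to 12.37. Their part was not tested, and slide and group cannot be told apart.

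After PH, with arrays that the choice of genes did not use, Acot5 was the member called in the same contrast. The mice may be the same as those whose arrays before PH chose the genes, so the call may not be independent of that choice. Both groups hold survivors only, and by the paper a smaller share of the untreated mice outlived the surgery. Acot5 rose 3.04-fold (log2 1.61 ± 0.39 standard error, adjusted p = 0.0118, limma) in M+Fc-GLP-1 against MCD mice, with all 4 treated arrays above all 4 untreated ones. Acot3 was at 1.84 ± 0.70 (adjusted p = 0.108) and Acot4 at 0.66 ± 0.33 (adjusted p = 0.235), with overlapping arrays. Acot1 (0.15 ± 0.55) and Acot2 (0.03 ± 0.58) were near 0, with 95% intervals of -0.97 to 1.28 and -1.15 to 1.21. The 1 member of 5 called, higher, compares with 6.50% of genes called and 3.71% called higher, and the higher share of calls was 57.1%, or 41.0% with arrays centred on their median. The Acot5 call was lost without M+Fc-GLP-1 replicate 2 (log2 1.23, adjusted p = 0.0627) and in a fit of these 8 arrays alone (adjusted p = 0.0689). It was also lost when probe 2 stood for Acot5 (log2 1.32, adjusted p = 0.0817). In this comparison all 5 neutrophil markers were called lower (summed level 5.67 to 7.40 in MCD, 2.72 to 5.36 in M+Fc-GLP-1 mice) and 1 of 6 macrophage markers (7.71 to 8.85 against 7.34 to 7.87), and the groups lay on different slides and scanners. Endothelial markers were called lower for 1 of 6 and cholangiocyte markers higher for 1 of 5 tested.

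On chow, Fc-GLP-1 gave no call among the members by limma at either time. Before PH Acot1 was at -1.56 ± 0.55 (adjusted p = 0.118) and Acot5 at -1.01 ± 0.39 (adjusted p = 0.154) in C+Fc-GLP-1 against C mice, 2 members having an unadjusted p under 0.05, and 2.11% of all genes were called. Acot1 arrays of these groups did not overlap, and Acot1 was called lower with normexp and quantile normalization (log2 -2.17, adjusted p = 0.0074) and with the authors' normalized values (-2.22, adjusted p = 0.0118). Acot2 (-0.54 ± 0.58), Acot3 (-0.41 ± 0.70) and Acot4 (-0.28 ± 0.33) were within 1 standard error of 0. After PH the 5 estimates ranged from -0.99 ± 0.58 for Acot2 to 0.45 ± 0.70 for Acot3, 0 members had an unadjusted p under 0.05, and 2.06% of genes were called. Slides differed between the groups at both times, and the source label of treated chow-fed arrays taken after PH names a dual agonist.

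The difference between the drug's effect on MCD diet and on chow was tested after PH, where by label the drug may not be the same on both diets. It was 1.50 ± 0.54 on the log2 scale for Acot5 (unadjusted p = 0.0102, adjusted p = 0.367, limma), 1.39 ± 0.98 for Acot3, 1.02 ± 0.82 for Acot2, 0.99 ± 0.78 for Acot1 and 0.50 ± 0.47 for Acot4. By limma 0 members were called, 1 had an unadjusted p under 0.05, and 0.00% of all genes were called. The diet difference under Fc-GLP-1 was smaller after than before PH by 1.09 ± 0.47 for Acot4 (a log2 difference of -1.09, unadjusted p = 0.0268, adjusted p = 0.454), and differed by -1.13 ± 0.98 for Acot3, -1.07 ± 0.78 for Acot1 and -0.33 ± 0.82 for Acot2. Again 0 of the 4 tested members were called, 1 had an unadjusted p under 0.05, and 0.0949% of genes were called.

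Levels after PH were also compared with those before PH within each diet and treatment. In C mice Acot1 was at -1.26 ± 0.55 (adjusted p = 0.119) and Acot5 at -0.90 ± 0.39 (adjusted p = 0.115), both with an unadjusted p under 0.05, and limma called 0 of 5 members against 14.0% of genes. In M+Fc-GLP-1 mice Acot1 was at -1.60 ± 0.55 (adjusted p = 0.133), with arrays that did not overlap, and Acot4 at -0.74 ± 0.33 (adjusted p = 0.259), 0 of 4 being called and 2 having an unadjusted p under 0.05, against 1.71% of genes called. In MCD mice 0 of 4 were called and 1, Acot4 at -0.69 ± 0.33, had an unadjusted p under 0.05, against 9.43% of genes. In C+Fc-GLP-1 mice the 5 estimates lay between -0.53 ± 0.55 for Acot1 and 0.35 ± 0.33 for Acot4, 0 being called or having an unadjusted p under 0.05, against 0.835% of genes. The later arrays are from mice that outlived the surgery. Slide and time cannot be told apart in these comparisons, which treat the arrays as independent. With the replicate number as a block, limma also called 0 members in each. That block is shared by all 8 groups, so it does not pair the samples of single mice, and a fit that does was not run. Acot5 read -1.39 ± 0.30 after and -1.83 ± 0.51 before PH in MCD mice, and 0.22 ± 1.00 and 0.81 ± 0.47 in M+Fc-GLP-1 mice (SD, n = 4), with overlapping arrays.

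The 2 probes of Acot3 ran in parallel over the groups and those of Acot5 did not. Over the 32 arrays the Pearson correlation between the probes, given as a description over arrays that share groups and slides, was 0.96 for Acot3 and 0.46 for Acot5, and with group means removed 0.78 and 0.53. Before PH, Acot5 probe 2, which ends in AATAAA, read -3.95, -2.59, -3.02 and -2.97 in MCD mice and -3.50, -4.02, -2.28 and -3.34 in M+Fc-GLP-1 mice. Their means differed by -0.16 where probe 1 gave 2.65. The probe was well above background on 2 of 4 M+Fc-GLP-1 arrays before PH and on 23 of 32 arrays in all. After PH it read -3.24, -3.98, -2.88 and -2.14 in MCD and -1.49, -0.98, -2.69 and -1.80 in M+Fc-GLP-1 mice, which gave 1.32 ± 0.46. In the contrast that chose the gene the probes thus differed, and in the same contrast after PH both gave estimates above 0.

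**Figure D4:**
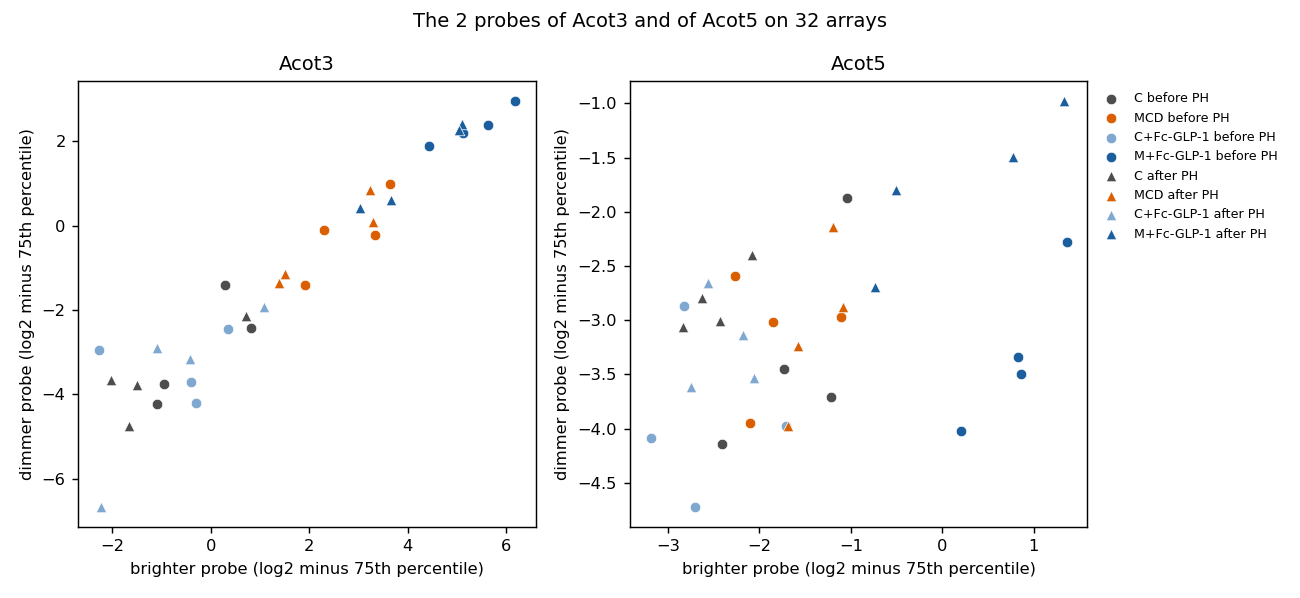
Dimmer probe (vertical axis) against brighter probe (horizontal axis) of Acot3 and Acot5, both as log2 signal minus the array's 75th percentile, for 32 arrays coloured by group, with circles before and triangles after PH. The Acot3 points follow 1 line, whereas the 4 M+Fc-GLP-1 arrays before PH lie at the right of the Acot5 panel at -4.02 to -2.28 on the dimmer probe.

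Each of the 28937 kept probes was also tested on its own after PH. For M+Fc-GLP-1 against MCD mice, in which 6.14% of probes were called by limma, the adjusted p was 0.0124 for probe 1 and 0.0834 for probe 2 of Acot5. For M+Fc-GLP-1 against C+Fc-GLP-1 mice, in which 12.3% were called, probe 2 of Acot5 gave a log2 difference of 1.50 ± 0.46 (adjusted p = 0.0305) and probe 2 of Acot3 5.09 ± 0.77 (adjusted p = 3.66e-05). For MCD against C mice, in which 11.6% were called, probe 2 of Acot3 gave 3.19 ± 0.77 (adjusted p = 0.00637) and probe 2 of Acot5 -0.24 ± 0.46 (adjusted p = 0.795), against 1.11 by probe 1.

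Among the members, Acot3 and Acot4 varied most alike and Acot1 had the lowest correlations. Over 32 arrays that share groups, the Pearson correlation was 0.95 between Acot3 and Acot4, 0.88 between Acot3 and Acot5, 0.86 between Acot2 and Acot4 and -0.26 between Acot1 and Acot2. With group means removed it was 0.80, 0.67, 0.51 and 0.12 in the same order. Acot1, which was at -0.07 with Acot4 over all arrays, was at 0.55 with Acot4 and 0.50 with Acot5 within groups.

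The genes most like each member, by Pearson correlation over the 32 arrays, were also listed as a description. For Acot5 they were Pex11a (0.94), which drives the division of peroxisomes, 2310081J21Rik (0.89) and Acadl (0.88), a mitochondrial acyl-CoA dehydrogenase. For Acot3 they were 2310081J21Rik (0.96), Rdh9 (0.95), a retinol dehydrogenase, and D630004K10Rik (0.94), and for Acot4 D630004K10Rik, 2310081J21Rik and the cytochrome P450 gene Cyp2b13 (each 0.93). For Acot2 they included Mthfd1l (0.91), which serves mitochondrial folate metabolism, and the lipid droplet gene Cidec (0.90). For Acot1 the named genes were Hsd17b6 (0.82) and Slc6a16 (0.81). After PH Pex11a was at 1.24 ± 0.29 in MCD against C mice (adjusted p = 0.00491, limma) and at 0.74 ± 0.29 in M+Fc-GLP-1 against MCD mice (adjusted p = 0.121). No test compared it with Acot5.

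The other acyl-CoA thioesterases, of which 11 of 12 listed genes were tested, were called in both directions. In MCD against C mice before PH 4 were called higher, among them mitochondrial Acot9 (log2 2.15 ± 0.48, adjusted p = 0.00152) and Acot10 (1.50 ± 0.38, adjusted p = 0.00481), and 2 lower, cytosolic Acot7 (-1.82 ± 0.26, adjusted p = 1.36e-05) and peroxisomal Acot8 (-0.79 ± 0.27, adjusted p = 0.0327), and the median was 0.13 against -0.13 over all genes. After PH 0 were called higher and 2 lower, Acot7 (-1.34 ± 0.26, adjusted p = 0.00101) and Baat (-0.96 ± 0.31, adjusted p = 0.0411), which joins bile acids to amino acids, with a median of 0.15 against -0.03. Under Fc-GLP-1 the diet comparison called 1 higher before PH, Them4 (1.16, adjusted p = 0.00965), and 1 higher and 2 lower after PH. Acot6, the next gene of the locus, was called in 1 of the 4 diet comparisons, M+Fc-GLP-1 against C+Fc-GLP-1 mice after PH (log2 2.16 ± 0.35, adjusted p = 9.62e-05). In M+Fc-GLP-1 against MCD mice after PH the 1 gene called was Olah (3.26 ± 0.66, adjusted p = 0.0034), a thioesterase that ends medium-chain fatty acid synthesis, and the median was 0.19 against 0.05.

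Of 36 genes of fatty acid oxidation known as PPAR alpha targets or partners, 35 were tested. The diet alone before PH called 3 higher, led by Fgf21 (log2 4.56 ± 0.54, adjusted p = 8.41e-07) and the fatty acid transporter gene Cd36 (2.21 ± 0.40, adjusted p = 0.000188), and 2 lower, among them the peroxisomal thiolase gene Acaa1b (-2.44 ± 0.37, adjusted p = 2.24e-05). The median was -0.20, against -0.13 over all genes. After PH the diet alone called 8 higher, led by Fgf21 (7.06, adjusted p = 5.30e-10) and the fatty acid hydroxylase gene Cyp4a14 (3.07, adjusted p = 0.0102), and 1 lower, with a median of 0.15 against -0.03. Under Fc-GLP-1 the diet comparison before PH called 16 higher and 0 lower (median 0.64 against 0.04), led by Cyp4a14 (4.32, adjusted p = 0.000459) and Fgf21 (3.23, adjusted p = 0.000143). After PH it called 11 higher and 0 lower (median 0.43 against -0.01), again with Cyp4a14 (4.72, adjusted p = 0.000124) and Fgf21 (4.51, adjusted p = 1.07e-06) at the top. The drug on MCD diet after PH called 0 higher and 1 lower, Cd36 (-1.79 ± 0.40, adjusted p = 0.00713), with a median of 0.42 against 0.05.

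The gene of the receptor itself, Ppara, was called higher in MCD against C mice after PH (log2 1.22, adjusted p = 0.0109) and in M+Fc-GLP-1 against C+Fc-GLP-1 mice before PH (1.39, adjusted p = 0.00448). Of the 7 receptor and coactivator genes, M+Fc-GLP-1 against C+Fc-GLP-1 mice had 4 called higher and 1 lower before PH (median 0.68) and 3 higher and 1 lower after PH (0.71). MCD against C mice had 0 called by limma before PH (median -0.34) and 2 higher and 1 lower after PH (0.72), and M+Fc-GLP-1 against MCD mice after PH had 0 called (0.11). The acyl-CoA synthetases, which make the substrates that the Acot enzymes split, were mostly called lower with the diet where called. Before PH 1 of 17 was called higher, Acsl4 (1.33 ± 0.35, adjusted p = 0.00591), and 8 lower, led by Acsl6 (-2.63, adjusted p = 0.000425) and Acsm5 (-1.53, adjusted p = 0.00026), with a median of -0.94 against -0.13. After PH 0 were called higher and 4 lower (median -0.67 against -0.03), and under Fc-GLP-1 the diet comparison called 1 higher and 3 lower before PH and 1 higher and 4 lower after PH. Of 16 genes of peroxisomal transport and CoA hydrolysis, the diet alone before PH called 1 higher, the acyl-CoA transporter gene Abcd2 (2.32, adjusted p = 0.00175), and 3 lower, led by Nudt7 (-1.96, adjusted p = 0.00736), a peroxisomal hydrolase of coenzyme A, with a median of -0.47. After PH it called 1 higher and 1 lower, and under Fc-GLP-1 the diet comparison called 2 higher and 2 lower before PH and 1 higher and 2 lower after PH.

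Stretches around a transcript start of each of the 5 genes are shown to set the promoters of these neighbours side by side. Over the arrays Acot2, Acot3, Acot4 and Acot5 were correlated at 0.67 to 0.95 and Acot1 with them at -0.26 to 0.22. Each runs from 60 bases before to 30 after a transcript start, the first that the RefSeq promoter table lists for the gene (GRCm38.p6, plus strand). For Acot1, Acot2 and Acot3 it is the start of the gene given above, whereas for Acot4 it lies 1125 and for Acot5 247 bases inside the gene, so that the first starts of these 2 genes are not shown. In the stretches, capitals mark matches, on either strand, to AGGTCA and AAAGGTCA, the latter holding the former. PPAR alpha is known to bind, with RXR, a repeat of such letters with 1 base between, searched for as AGGNCANAGGNCA.
Acot1, chr12:84009442-84009531: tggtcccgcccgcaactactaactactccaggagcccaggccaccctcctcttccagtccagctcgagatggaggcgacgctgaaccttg
Acot2, chr12:83987801-83987890: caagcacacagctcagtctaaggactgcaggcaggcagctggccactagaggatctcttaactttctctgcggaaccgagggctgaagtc
Acot3, chr12:84052084-84052173: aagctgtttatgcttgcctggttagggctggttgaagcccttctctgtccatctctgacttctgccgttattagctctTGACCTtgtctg
Acot4, chr12:84038319-84038408: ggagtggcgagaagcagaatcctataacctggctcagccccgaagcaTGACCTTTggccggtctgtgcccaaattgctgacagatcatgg
Acot5, chr12:84069264-84069353: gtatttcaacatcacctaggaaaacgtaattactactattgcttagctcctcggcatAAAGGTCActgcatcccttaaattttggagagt

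Within the 300 bases from 250 before to 50 after these transcript starts, AGGTCA was found for Acot3, Acot4 and Acot5 and in 16.0% of 27025 promoters, the first listed for each gene. AAAGGTCA was found for Acot4 and Acot5 and in 1.46% of promoters, and the repeat AGGNCANAGGNCA for none of the 5 and in 0.381%. For Acot1 and for Acot2, which was correlated with Acot3 at 0.84 and with Acot4 at 0.86, the window held no match to any of them. A match describes the sequence alone, and binding was not measured.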

How the data were processed

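Liver RNA labelled with Cy3 was hybridized to 32 1-colour 60-mer arrays, 1 per sample. The authors deposited intensity values of the scanner software (Feature Extraction 10.7.3.1), corrected for background and spatial trend within each array per the file headers, and a table of log2 values that the authors normalized with limma. The settings of that normalization are not given in the sources used here. The 5 genes and all gene and marker lists were chosen with earlier results of these data known.

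From each array's log2 processed signal its 75th percentile over the non-control spots (209.4 to 778.4 intensity units) was subtracted. Outlier spots were left out, which removed 426 probes. A probe entered the tests if every array of some group read it well above background (28937 of 55681 probes). Each of 21073 genes was read by its brightest such probe, with names taken from RefSeq for 27656 probes and otherwise from the files. The genes named are the members, the 2 largest called rises and falls of each list, Acot6, receptor genes and, for each member, the 3 genes most correlated with it. A probe known by position alone was left out of the last, and 2 genes that the rule names are not reported here.

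The test was limma 3.58.1 (R 4.3.3) with 1 fit over the 8 groups, Benjamini-Hochberg adjustment over all genes and a threshold of 0.05, for 12 comparisons between groups and 2 differences of changes. The study's legends give 4 mice per group for the arrays, which the fit takes as independent, and that number limits the precision. The fit was tested on simulated data. Alternatives were normexp (offset 50) with quantile normalization, median centring, the authors' values, dim probes kept, probes of a gene averaged, only the compared groups fitted, a replicate block and each array left out. The other probe of Acot3 and Acot5, and every probe tested on its own, were chosen after seeing the data.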

Additional observations from a re-analysis of the deposited data

Results flagged for a closer look

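Of the 56 groups of 4 arrays formed by the 7 probes, 2 held an array far from the rest, by a test on its gap to the nearest array over the group's range, where chance gives about 1 in 20. Acot2 in C mice before PH was at -2.51 on the array of replicate 1 and at -3.50 to -3.35 on the other 3. Acot4 in C mice after PH was at 1.35 on the array of replicate 1 and at 0.70 to 0.81 on the other 3.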

How the results depend on the processing

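Every called member kept its direction under all alternatives, and the replicate block changed no count. The labels' replicate numbers were not taken to pair the samples (correlations of deviations from the group mean between same-numbered samples lay between -0.19 and 0.52, after against before PH, where names repeat, between -0.05 and 0.09, and in no comparison were all over 0.1), and with the number as a block M+Fc-GLP-1 against MCD mice after PH still gave 1 call, and MCD against C mice before PH 4.

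The count of members called changed in 2 comparisons by more than 1.5 times. For C+Fc-GLP-1 against C before PH it was 0, and 1 with normexp and quantile normalization and with the authors' values. For M+Fc-GLP-1 against MCD after PH it was 1, and 0 in a fit of the groups compared, 0 with the other probe of Acot3 and Acot5, and 0 to 1 when single arrays were left out, 0 being without M+Fc-GLP-1 replicate 2. The Acot5 difference that chose the genes was -0.16 with the other probe, and Acot5 in M+Fc-GLP-1 against C+Fc-GLP-1 mice before PH was 2.28 with normexp, 2.17 with the authors' values, 2.02 as the mean of probes and 0.63 with the other probe. In M+Fc-GLP-1 mice after against before PH Acot5 was 0.47 as the mean of probes and 1.54 with the other probe, and its change of the diet difference under the drug was 0.03 and 0.87.

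Signs turned only for members not called. Centred on the array median, Acot4 was 0.03 in C+Fc-GLP-1 against C before PH and 0.06 in C after against before PH, and Acot2 was -0.10 in M+Fc-GLP-1 against MCD after PH and 0.05 in M+Fc-GLP-1 after against before PH. With normexp, Acot1 was -0.23 and Acot2 -0.20 in M+Fc-GLP-1 against MCD after PH (-0.28 and -0.29 with the authors' values), Acot4 -0.14 in C+Fc-GLP-1 and Acot2 0.07 in M+Fc-GLP-1 mice after against before PH, and Acot2 0.03 in the change of the diet difference under the drug. With the other probe, Acot5 was -0.24 in MCD against C after PH, -0.42 in C+Fc-GLP-1 against C after PH (-0.16 as the mean of probes) and 0.47 in C mice after against before PH, and Acot3 -0.08 in C+Fc-GLP-1 against C after PH.

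With single arrays left out, values crossed 0 as follows. In C+Fc-GLP-1 against C mice Acot3 ranged from -0.74 to 0.13 before PH, and after PH Acot3 from -0.14 to 1.06, Acot4 from -0.02 to 0.44 and Acot5 from -0.01 to 0.25. For M+Fc-GLP-1 after PH, Acot1 ranged from -0.06 to 0.37 and Acot2 from -0.16 to 0.30 against MCD, and Acot1 from -0.72 to 0.27 against C+Fc-GLP-1. After against before PH, Acot2 ranged from -0.13 to 1.08 and Acot3 from -0.60 to 0.51 in C+Fc-GLP-1, and Acot2 from -0.04 to 0.41 in MCD and from -0.67 to 0.52 in M+Fc-GLP-1 mice. The change of the diet difference under the drug ranged from -1.13 to 0.24 for Acot2. The causes were not tested. Centring on the array median moved the median of all genes by -0.32 to 0.37 over the comparisons. Dim probes limit Acot2 in chow-fed mice before PH and the second probe of Acot5, which were not well above background on part of the arrays. The count of all genes called by limma in C+Fc-GLP-1 against C before PH was 444, and 2464 with normexp, 2217 with the authors' values and 1039 with median centring. After PH that comparison had 434 against 132 and 69 with the first pair of settings. With normexp, after against before PH gave 1296 against 176 in C+Fc-GLP-1, 1264 against 1987 in MCD and 623 against 361 in M+Fc-GLP-1 mice. M+Fc-GLP-1 against C+Fc-GLP-1 gave 2183 before PH, against 1445 with normexp and 1308 with the authors' values, and 2703 after PH, against 1786 with the latter. M+Fc-GLP-1 against MCD after PH gave 1369 against 855 with the authors' values. The differences of changes gave 0 and 20 genes, against 5 and 6 with normexp, and 12 for the second with median centring.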
